A study of Mus musculus with 6 samples.

Results

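The genes described here are the 52 genes of the DNA replication machinery and of nucleotide supply, chosen by symbol from the 18943 genes of a mouse RNA-seq table. All 52 were listed and all 52 were tested. The RNA came from muscle stem cells (MuSCs), the Pax7-expressing stem cells of skeletal muscle, purified by FACS from wild-type C57BL/6 mice aged 8 weeks and kept in culture for 5 days. The cells received the solvent DMSO as control, endothelin-3 (ET-3) or neurotensin (NT), peptides that signal through G protein-coupled receptors, and each group had 2 libraries. The labels give 100 nM for both ligands, and the paper's methods give higher doses. Nothing in the labels says that the libraries of a group came from separate cultures or mice, so p-values measure only the spread between these libraries, which may be technical. The comparisons address how the RNA of cultured MuSCs differs between either ligand and DMSO. The paper reports, from EdU uptake into new DNA and protein staining, that both ligands held back expansion and myogenic commitment of cultured MuSCs. Those measures are unlike the RNA values given here.

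DNA replication starts at origins that the origin recognition complex (ORC) marks. Cdc6 and Cdt1 load the ring-shaped MCM2-7 helicase there, and the kinase Cdc7 with its partner Dbf4, Cdc45 and the GINS complex then switch it on. Polymerase alpha-primase starts each new strand, polymerases delta and epsilon extend it on the sliding clamp PCNA, and Fen1 and Lig1 join the pieces of the lagging strand. Ribonucleotide reductase, thymidylate synthase and thymidine kinase provide the nucleotides, and most genes of this machinery are transcribed under E2F factors as a cell passes from G1 into S phase. Quiescent MuSCs in muscle do not replicate their DNA, activated MuSCs do, and MuSCs that differentiate leave the cell cycle for good.

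Most replication genes were higher in MuSCs with either ligand than in MuSCs with DMSO. With ET-3, 48 of the 52 genes were higher, 3 were lower and 1 did not pass the test at an adjusted p of at most 0.05 (limma on log2(value + 1), Benjamini-Hochberg over all 13921 genes tested). Over all genes tested, 30.6% were higher and 33.2% lower with ET-3. With NT, 46 of the 52 were higher, 2 were lower and 4 did not pass, against 29.7% higher and 32.5% lower over all genes. Scaling each library to its total turned the 4257 higher and 4616 lower calls over all genes with ET-3 into 5105 and 4073, and the 4131 and 4528 with NT into 5177 and 3703. Both comparisons use the same DMSO libraries, so their values are given side by side and not counted as separate evidence. The changes were mostly under 2-fold. The median log2 fold change of the 52 genes was 0.79 with ET-3 (range -0.58 to 1.81) and 0.75 with NT (range -0.53 to 1.98), where the median of all genes was -0.01 in both comparisons. At least 1.5-fold higher were 38 of the 52 genes with ET-3, beside 13.7% of all genes, and 35 with NT, beside 14.8%. At least 2-fold higher were 7 with ET-3, beside 6.62% of all genes, and 7 with NT, beside 7.3%. Scaled to the library total these were 16 with ET-3, beside 7.86%, and 15 with NT, beside 8.92%. With ET-3 they were 13 when scaled to the upper quartile, beside 7.3%, and 11 without the second ET-3 library, beside 6.28%. None of the 52 was lower by 2-fold or more, where 14.9% of all genes were with ET-3 and 13.2% with NT. In 47 of the 52 genes all 4 treated libraries lay above both DMSO libraries, in 3 all lay below, and in 2 the groups overlapped, beside 33.2% above and 36.4% below over all genes.

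Summed over the 52 genes, the values were 18817 and 18947 in the DMSO libraries, 30629 and 29545 in ET-3 and 29279 and 28232 in NT. They made up 0.412% of the total in both DMSO libraries and between 0.67% and 0.708% in the 4 treated libraries. The share was thus higher in every treated library than in either control.

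**Figure D1:**
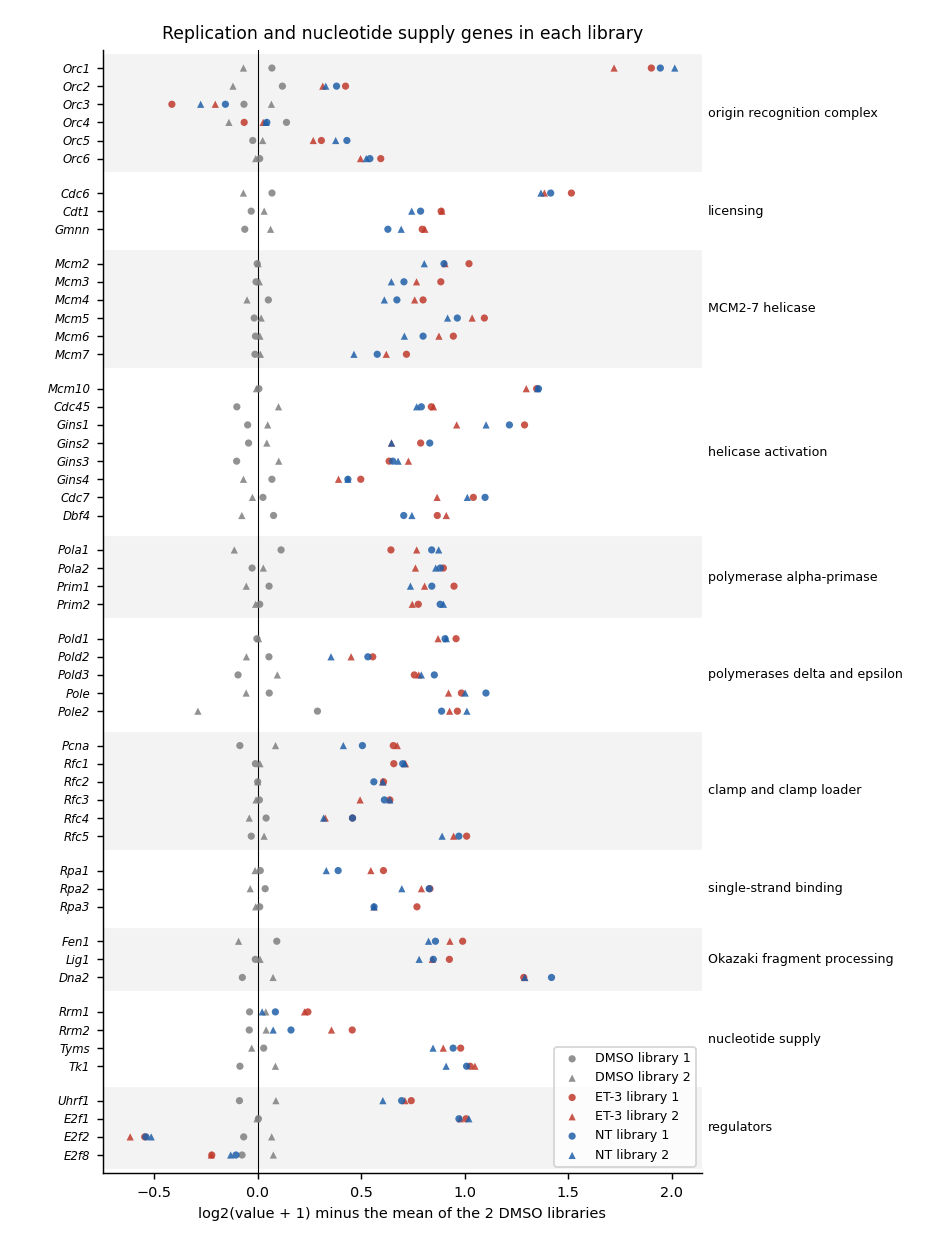
Value of each of the 52 genes in each library on the log2(value + 1) scale, less the mean of the 2 DMSO libraries, with the genes grouped by role. Circles are the first and triangles the second library of DMSO (grey), ET-3 (red) and NT (blue); in 47 genes all treated libraries lie to the right of both DMSO libraries, and E2f2, E2f8 and Orc3 lie to the left.

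The deposited values are rounded read counts that carry a scaling factor of each library, and they sum to between 4214458 and 4600575 per library, with 17057 to 17678 genes above 0. Divided by the factors, the libraries held 3628952 to 5396233 reads, which gives a counting error of 8.84% to 10.9% for a value of 100. The 2 libraries of each treated group differed by no more than sampling noise. Averaged over the 52 genes, the chi-square of the reads of a pair, near 1 where only counting error acts, was 0.836 in ET-3, 0.668 in NT and 1.19 in DMSO, and it lay between 68.1 and 79.7 when a DMSO library was set against a treated library. The treated pairs may therefore each be 1 sample measured again, although the paper speaks of biological samples. A fit with each treated pair averaged takes its within-group spread from the DMSO libraries alone. It assumes that the treated samples vary like them. When both treated pairs were averaged into 1 sample each, 34 of the 52 genes were higher and 0 lower with ET-3, beside 10.5% higher and 18.2% lower over all genes. With NT, 30 were then higher and 0 lower, beside 9.16% and 15.7%. Among the 52 genes, for those whose library values follow, the calls lost in this way were those of Cdc45, Pola1, Pcna, Rrm1, Rrm2, Uhrf1, E2f2, E2f8 and Orc3 with ET-3 (limma, adjusted p = 0.0531 to 0.203) and of Gmnn, Cdc45, Dbf4, Pola1, Pcna, Fen1, Uhrf1, E2f2 and Orc3 with NT (0.0523 to 0.194).

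Markers of muscle cells changed as well, and many not in the direction of the replication genes. The 11 markers of differentiating muscle, such as Myog, a transcription factor of differentiation, and Myh3, the embryonic myosin, were all lower by 2-fold or more with both ligands, and their summed value was 16018 and 17795 in DMSO, 926 and 956 in ET-3 and 899 and 749 in NT. Myh8, Ckm and Mymx were at 0 in both ET-3 libraries. In bulk RNA, fewer differentiating cells and less of this RNA per cell cannot be told apart, and their part in the replication values was not tested. The 9 markers of MuSCs and myoblasts were all detected, and summed to 10462 and 11282 in DMSO and to between 9962 and 11740 in the treated libraries. Of the 9, 4 were higher and 3 lower with ET-3, and 4 were higher and 5 lower with NT. Pax7, their defining transcription factor, was at 857 and 1070 in DMSO, at 1754 and 1730 in ET-3 and at 1653 and 1599 in NT. Cdh15, a cadherin of MuSCs and myoblasts, was lower, with log2 fold changes of -1.80 and -1.82, as were Des (-0.34 and -0.69) and Itga7 (-0.18 and -0.42). Of other cell types, endothelial markers (3 of 5 tested, of which 2 were higher with ET-3 and 3 with NT) summed to 24 and 12 in DMSO and to between 85 and 107 in treated libraries. The receptor gene Tek gave 2 and 1 of this in DMSO and 42 to 70 in treated libraries, while Cdh5 was at 0 to 5. Fibroadipogenic markers (3 of 5 tested, of which 1 was higher and 1 lower with ET-3 and 2 were higher and 1 lower with NT) summed to 204 and 211 in DMSO and 70 to 97 in treated libraries. Col1a1, at 148 and 146 in DMSO and 2 to 8 in treated libraries, carried the lower sum, Ly6a was higher with both ligands (0.83 and 0.98) and Pdgfra with NT (0.70), and Dcn was at 0 in 3 treated libraries. Macrophage markers (2 of 4 tested) summed to between 21 and 45 in all libraries, and Schwann cell markers (1 of 4 tested) to between 17 and 44. Markers of smooth muscle cells and pericytes (3 of 4 tested, all 3 lower with both ligands) summed to 1947 and 2145 in DMSO and 717 to 783 in treated libraries. Acta2 gave 1216 and 1382 of this in DMSO and 251 to 281 in treated libraries. Cspg4 was at 610 and 612 in DMSO and 433 to 509 in treated libraries, and Rgs5 at 117 and 150 and at 2 to 5. Myh11 was at 0 to 4 in all 6 libraries. Whether these RNAs came from other cell types or from the MuSCs themselves was not tested. Their part in the replication values was not tested either.

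Among the genes that mark origins, Orc1 changed most of all 52. Orc1 (chr4:108579423-108614833 on GRCm38), the subunit of ORC whose level rises and falls through the cell cycle, was at 54 and 49 in DMSO, 195 and 172 in ET-3 and 201 and 211 in NT. Every treated library was more than 3 times either DMSO library, and the log2 fold changes were 1.81 ± 0.11 (SE) with ET-3 (limma, adjusted p = 4.45e-07) and 1.98 ± 0.11 with NT (adjusted p = 2.56e-07). The other ORC subunits moved little. Orc2, Orc5 and Orc6 were higher by 0.29 to 0.55 on the log2 scale with ET-3 and 0.35 to 0.53 with NT. Orc3 was at 414 and 454 in DMSO, 325 and 376 in ET-3 and 389 and 358 in NT, below the DMSO libraries in every treated library. Its log2 fold changes were -0.31 ± 0.08 (limma, adjusted p = 0.00739) and -0.22 ± 0.08 (adjusted p = 0.0417), and they did not pass without either DMSO library, nor without the first ET-3 library for ET-3 or without either NT library for NT (limma, adjusted p = 0.0551 to 0.328). For NT the call was also lost under both other scalings and without a filter on low values (adjusted p = 0.0696 to 0.285). Orc4 was at 438 and 361 in DMSO, 380 and 405 in ET-3 and 410 and 409 in NT, so its groups overlapped, and it did not pass with either ligand (log2 fold changes -0.02 and 0.04, limma, adjusted p = 0.853 and 0.684). Per exonic kilobase, Orc1 was at 0.116 and 0.124 of the level of Orc2 with DMSO and at 0.322 to 0.391 in the treated libraries. Orc1 was thus the lowest of the 6 subunits per exonic kilobase with DMSO (14.8) and at 52.7 with ET-3, where Orc4 was at 52.6. That match rests on the length used, since the exons of Orc4 span 7458 bases and its longest transcript 4066. For Orc1 the lengths are 3479 and 3014.

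All 3 licensing genes were higher with both ligands. Cdc6, the loader of the helicase, was at 207 and 188 in DMSO, 566 and 517 in ET-3 and 528 and 511 in NT. The treated libraries did not overlap the controls, and the log2 fold changes were 1.45 ± 0.07 (limma, adjusted p = 6.85e-08) and 1.39 ± 0.07 (adjusted p = 9.86e-08), the next largest after Orc1. Cdt1, which brings the helicase to the origin with Cdc6, was at 405 and 423 in DMSO, 766 and 768 in ET-3 and 715 and 694 in NT. Gmnn encodes geminin, the inhibitor that holds Cdt1 back after replication has begun, and it was at 121 and 132 in DMSO, 220 and 222 in ET-3 and 196 and 205 in NT. The log2 fold changes of Cdt1 (0.89 and 0.77) and Gmnn (0.80 and 0.66) lay near each other. Accordingly the ratio of Cdt1 to Gmnn per exonic kilobase lay between 1.5 and 1.7 in all 6 libraries. It was 1.56 and 1.5 in DMSO and slightly higher in the treated libraries, at 1.62 and 1.61 in ET-3 and 1.7 and 1.58 in NT.

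The 6 genes of the MCM2-7 helicase were higher together, with log2 fold changes of 0.67 to 1.07 with ET-3 and 0.52 to 0.94 with NT, and and none of the 6 overlapped the DMSO libraries in any treated library. Mcm5 was at 506 and 518 in DMSO, 1095 and 1051 in ET-3 and 1000 and 968 in NT, the largest change of the 6. Mcm2 was at 611 and 613 in DMSO, 1243 and 1147 in ET-3 and 1143 and 1070 in NT. Mcm7 was at 645 and 657 in DMSO, 1072 and 1002 in ET-3 and 972 and 899 in NT, the smallest change. Mcm3 went from 634 and 641 in DMSO to 1178 and 1086 in ET-3 and 1041 and 998 in NT, and Mcm4 from 709 and 660 to 1191 and 1158 and to 1091 and 1046. Mcm6 was at 667 and 677 in DMSO, 1295 and 1234 in ET-3 and 1170 and 1099 in NT. Each of the 6 had a lower mean with NT than with ET-3, by 0.11 to 0.16 on the log2 scale, and none of these 6 differences passed the test (limma, adjusted p = 0.115 to 0.287).

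The genes that activate the loaded helicase were all 8 higher with both ligands, by 0.44 to 1.32 with ET-3 and 0.44 to 1.35 with NT. Mcm10, which is needed to open the helicase, was at 253 and 251 in DMSO, 643 and 621 in ET-3 and 647 and 645 in NT (log2 fold changes 1.32 ± 0.05 and 1.35 ± 0.05, limma, adjusted p = 1.55e-08 and 1.46e-08). Cdc45 was at 206 and 237 in DMSO, 396 and 399 in ET-3 and 383 and 377 in NT. Both stood apart from the control in every treated library. Gins1, a subunit of GINS, was at 71 and 76 in DMSO, 181 and 144 in ET-3 and 172 and 159 in NT, and its log2 fold changes of 1.13 and 1.16 carried an SE of 0.13. Gins2, another subunit, was at 126 and 134 in DMSO, 225 and 204 in ET-3 and 232 and 204 in NT. For Gins2, 67.3% of the exonic bases are shared with exons of other genes, so its value is uncertain, and for Orc2 the share is 29.8%. The kinase gene Cdc7 was at 172 and 166 in DMSO, 349 and 309 in ET-3 and 363 and 342 in NT. Dbf4, its activating partner, was at 396 and 356 in DMSO, 686 and 707 in ET-3 and 613 and 630 in NT. Cdc7 thus reached 1.94-fold and 2.08-fold of the control and Dbf4 1.85-fold and 1.65-fold.

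**Figure D2:**
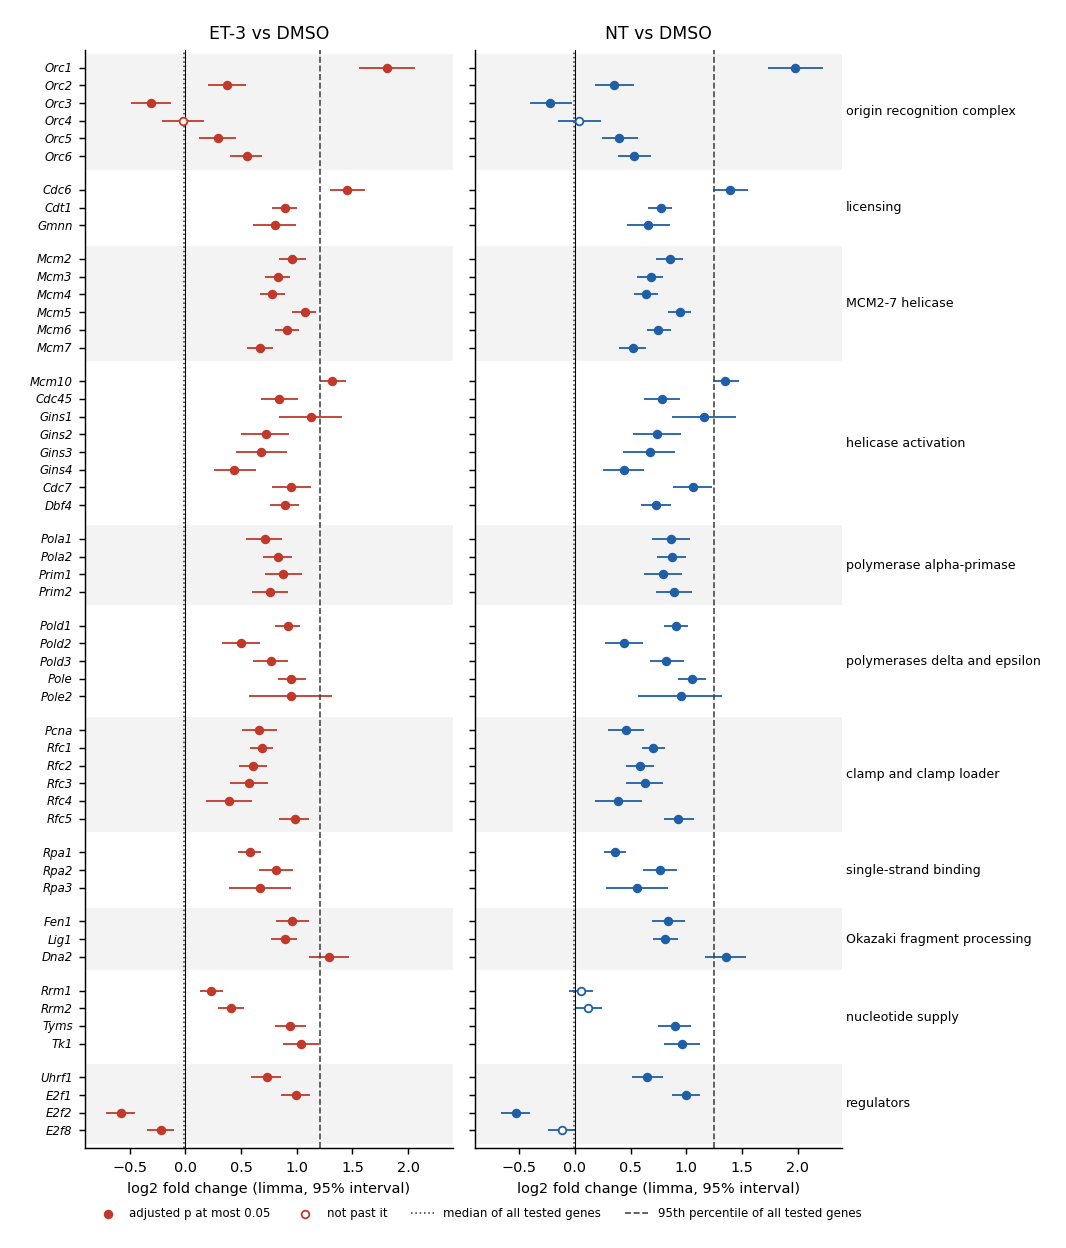
Log2 fold change of each of the 52 genes against DMSO with its 95% interval (limma), for ET-3 on the left and NT on the right; filled points passed an adjusted p of 0.05 and open points did not. The dotted line is the median of all 13921 genes tested and the dashed line their 95th percentile (1.21 with ET-3 and 1.25 in NT), which Orc1, Cdc6 and Mcm10 exceed with both ligands and Dna2 as well.

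The polymerase genes among the 52 were all higher, 4 of 4 for polymerase alpha-primase and 5 of 5 for polymerases delta and epsilon. Outside the 52, Pold4, a small subunit of polymerase delta, was lower with both ligands (-0.70 and -0.55). Pole3 and Pole4, further subunits of polymerase epsilon, were higher with both. Pola1, the catalytic subunit of polymerase alpha, was at 406 and 347 in DMSO, 587 and 640 in ET-3 and 673 and 689 in NT. Prim1, the catalytic subunit of primase, was at 217 and 201 in DMSO, 404 and 366 in ET-3 and 375 and 349 in NT. The subunits of this complex moved by like amounts, with log2 fold changes of 0.71 to 0.88 with ET-3 and 0.79 to 0.89 with NT. Pold1, the catalytic subunit of the lagging-strand polymerase delta, was at 368 and 370 in DMSO, 718 and 676 in ET-3 and 692 and 695 in NT. Pole, the catalytic subunit of the leading-strand polymerase epsilon, was at 496 and 459 in DMSO, 945 and 905 in ET-3 and 1026 and 957 in NT. Pold2, an accessory subunit of polymerase delta, moved least here (0.50 ± 0.08 and 0.44 ± 0.08). Pole2 had DMSO values of 96 and 64 and an SE of 0.17, the largest of the 52 genes.

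The clamp, its loader and the single-strand binding proteins changed less. Pcna, the sliding clamp, was at 267 and 301 in DMSO, 447 and 453 in ET-3 and 403 and 378 in NT, with log2 fold changes of 0.66 ± 0.07 and 0.46 ± 0.07 (limma, adjusted p = 1.78e-05 and 0.000251). Rfc1, the large subunit of the clamp loader, was at 518 and 526 in DMSO, 824 and 857 in ET-3 and 849 and 854 in NT. Of the small subunits, Rfc3 was at 176 and 174 in DMSO, 273 and 247 in ET-3 and 268 and 273 in NT. Across the 6 genes of clamp and loader the changes ran from 0.39 (Rfc4) to 0.98 (Rfc5) with ET-3 and from 0.39 to 0.93 with NT, all 6 past the test. The 3 genes of replication protein A, which coats single-stranded DNA, were also higher. Rpa2 was at 204 and 194 in DMSO, 355 and 345 in ET-3 and 354 and 323 in NT, and Rpa3 had log2 fold changes of 0.67 and 0.56.

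The genes that finish the lagging strand rose with both ligands. Dna2, a nuclease and helicase that trims long flaps, was at 119 and 132 in DMSO, 307 and 308 in ET-3 and 337 and 308 in NT (log2 fold changes 1.29 ± 0.08 and 1.36 ± 0.08, limma, adjusted p = 4.83e-07 and 3.64e-07). Lig1, the ligase, was at 497 and 505 in DMSO, 953 and 900 in ET-3 and 903 and 861 in NT. Fen1, the flap nuclease, was at 307 and 270 in DMSO, 573 and 549 in ET-3 and 523 and 511 in NT. All treated libraries lay above the controls in each of the 3. The value of Fen1 is uncertain, since 84.2% of its exonic bases are shared with exons of other genes.

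The genes of nucleotide supply fell into a pair that nearly doubled with both ligands and a pair that changed less. Tyms, thymidylate synthase, was at 227 and 218 in DMSO, 440 and 415 in ET-3 and 429 and 401 in NT. Tk1, thymidine kinase, was at 197 and 222 in DMSO, 427 and 434 in ET-3 and 422 and 394 in NT. Their log2 fold changes were 0.94 and 1.04 in ET-3 and 0.90 and 0.96 in NT, with SEs of 0.06 and 0.07. The subunits of ribonucleotide reductase, which makes deoxyribonucleotides, were at high levels throughout. Rrm1, the large subunit, was at 1162 and 1227 in DMSO, 1413 and 1397 in ET-3 and 1267 and 1212 in NT. Rrm2, the small subunit that S-phase cells make, was at 1065 and 1127 in DMSO, 1504 and 1403 in ET-3 and 1225 and 1154 in NT. Both were higher with ET-3 (0.23 ± 0.05 and 0.41 ± 0.05, limma, adjusted p = 0.00127 and 8.34e-05). With NT neither passed the test (0.05 ± 0.05 and 0.12 ± 0.05, limma, adjusted p = 0.335 and 0.0774), Rrm1 overlapped the DMSO libraries and Rrm2 did not, and Rrm2 passed under 4 alternatives, among them scaling to the library total (0.23, adjusted p = 0.00165). Under that scaling Rrm1 passed with NT as well (0.17, limma, adjusted p = 0.00504). Per exonic kilobase, Rrm2 was the highest of the 52 genes in all 3 groups, at 396, 525 and 429.

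The regulators did not move together. E2f1, an activator of replication genes, was at 211 and 210 in DMSO, 424 and 416 in ET-3 and 414 and 428 in NT (log2 fold changes 0.99 ± 0.06 and 1.00 ± 0.06, limma, adjusted p = 2.65e-07 and 2.83e-07). E2f2, likewise an activator, was at 701 and 770 in DMSO, 503 and 479 in ET-3 and 505 and 514 in NT. Its treated libraries all lay below the controls, and its log2 fold changes of -0.58 ± 0.06 and -0.53 ± 0.06 (limma, adjusted p = 1.22e-05 and 2.57e-05) were the lowest of the 52 genes. E2f8, an atypical E2F that represses, was at 642 and 713 in DMSO, 580 and 579 in ET-3 and 629 and 618 in NT. It passed the test with ET-3 (-0.22 ± 0.06, limma, adjusted p = 0.00603) but not with NT (-0.12 ± 0.06, adjusted p = 0.096), and not with ET-3 when either ET-3 library was left out (limma, adjusted p = 0.0507 in both cases) or libraries were scaled to their totals (0.0501). When the first DMSO library was left out, it passed with NT (-0.19, limma, adjusted p = 0.014). Uhrf1, which keeps DNA methylation on newly made DNA, was at 638 and 721 in DMSO, 1135 and 1111 in ET-3 and 1099 and 1032 in NT. Per exonic kilobase the order of the activators reversed. The ratio of E2f1 to E2f2 was 0.466 and 0.422 in DMSO, 1.3 and 1.34 in ET-3 and 1.27 and 1.29 in NT, and that of E2f1 to E2f8 was 0.567 and 0.508 in DMSO and 1.14 to 1.26 in treated libraries. The ratio of E2f1 to E2f8 also depends on the length used. The exons of E2f8 span 5443 bases and its longest transcript 3691, against 3154 and 2755 for E2f1. Of the E2F genes outside the 52, 4 of 5 were higher with each ligand and 0 lower. E2f5 was the clearest, at 59 and 57 in DMSO, 125 and 149 in ET-3 and 135 and 144 in NT.

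**Figure D3:**
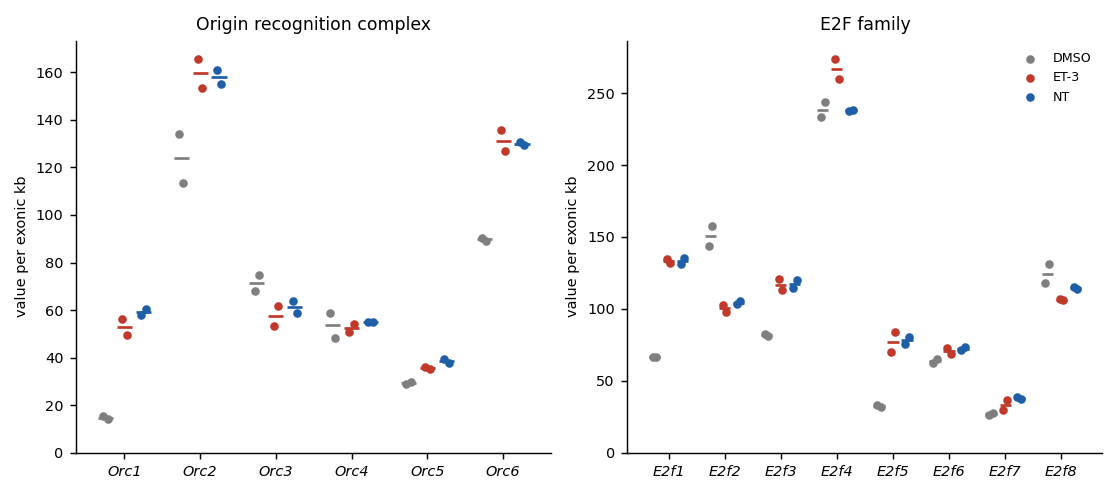
Value per exonic kilobase of the 6 ORC genes (left) and the 8 E2F genes (right) in each library, with points for libraries and bars for the mean of each group of 2. Orc1 and E2f1 stand higher in both treated groups, Orc3 and E2f2 stand lower, and E2f3 to E2f7 are shown for comparison.

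The upstream sequences of these genes were examined because the values above turn on genes known to be under E2F control. Promoter windows, 250 bases before to 50 bases after the transcript start, came from RefSeq on GRCm38.p6 and were matched to 44 of the 52 genes by symbol. Gmnn, Mcm4, Gins1, Gins2, Gins4, Prim2, Pole and Rfc2 were not matched. The E2F motif was searched as TTTGGCGC, TTTGCCGC, TTTCGCGC or TTTCCCGC on both strands, where matches to opposite strands can overlap, and it was present in 17 of the 44 genes (38.6%). It was present in 4.69% of the 10350 genes tested that had windows and in 2.6% of all 27025 genes with windows. Among the 17 were Orc1, Cdc6, Cdt1, Mcm3, Mcm5, Mcm6, Mcm7, Pola1, Pold1, Lig1 and Uhrf1, and also Orc3 and E2f2, which were lower with both ligands. The stretches shown, of 120 bases each and 5' to 3' on the gene's strand, are those with the motif in the 2 genes that changed most, in 3 helicase genes, in a loader subunit, in Cdt1 and in E2f2, with the motif in capitals. They lie at chr4:108579384-108579503, plus strand (Orc1), chr11:98907998-98908117, plus strand (Cdc6), chr8:75109341-75109460, plus strand (Mcm5), chr1:128359711-128359830, minus strand (Mcm6), chr1:20820263-20820382, minus strand (Mcm3), chr5:151651159-151651278, minus strand (Rfc3), chr4:136172204-136172323, plus strand (E2f2) and chr8:122567945-122568064, plus strand (Cdt1).
Orc1: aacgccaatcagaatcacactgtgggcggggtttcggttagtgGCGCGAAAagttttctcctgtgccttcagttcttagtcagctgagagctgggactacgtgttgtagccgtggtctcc
Cdc6: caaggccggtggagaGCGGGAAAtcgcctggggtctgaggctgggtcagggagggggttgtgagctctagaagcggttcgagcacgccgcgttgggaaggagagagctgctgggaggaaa
Mcm5: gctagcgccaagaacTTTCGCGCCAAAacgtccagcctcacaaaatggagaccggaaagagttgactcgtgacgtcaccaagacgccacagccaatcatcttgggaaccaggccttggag
Mcm6: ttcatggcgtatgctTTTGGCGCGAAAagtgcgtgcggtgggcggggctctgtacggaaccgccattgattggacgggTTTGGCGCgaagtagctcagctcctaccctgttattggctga
Mcm3: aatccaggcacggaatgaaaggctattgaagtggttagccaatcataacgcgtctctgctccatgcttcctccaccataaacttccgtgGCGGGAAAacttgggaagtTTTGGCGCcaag
Rfc3: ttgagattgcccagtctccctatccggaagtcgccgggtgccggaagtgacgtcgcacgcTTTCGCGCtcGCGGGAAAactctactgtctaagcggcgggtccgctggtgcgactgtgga
E2f2: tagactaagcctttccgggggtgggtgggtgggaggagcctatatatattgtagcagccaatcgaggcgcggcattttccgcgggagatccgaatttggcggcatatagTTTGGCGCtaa
Cdt1: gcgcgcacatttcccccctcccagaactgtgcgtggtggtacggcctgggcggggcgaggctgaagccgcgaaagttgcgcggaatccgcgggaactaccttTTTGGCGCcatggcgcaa

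In Mcm5 and at the first place in Mcm6 the capitals run over 12 bases, because matches on both strands overlap there, and Mcm6 has a further match nearer the start. In Rfc3 a pair of matches lies on opposite strands 2 bases apart. The shares of genes with other motifs differed between lists. The CHR motif (TTTGAA on either strand), known from genes of G2 and mitosis, was present in 9 of the 44 replication genes (20.5%), in 22 of 30 mitosis genes (73.3%), in 14.1% of the genes tested and in 20.2% of all genes with windows. The E2F motif was present in 2 of those 30 mitosis genes (6.67%) and in 11 of 53 further replication and nucleotide genes (20.8%). The CCAAT box (CCAAT on either strand) was in 26 of the 44 (59.1%), in 43.1% of the genes tested and in 41.1% of all genes with windows. It was in more of the mitosis genes, 22 of 30 (73.3%), and in 26 of 53 further replication and nucleotide genes (49.1%). Genes with and without the E2F motif had like medians. The median log2 fold change was 0.83 with ET-3 and 0.77 in NT in the 17 genes with it, and 0.81 and 0.73 in the 27 without. A match is a description of these letters, not evidence of binding.

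**Figure D4:**
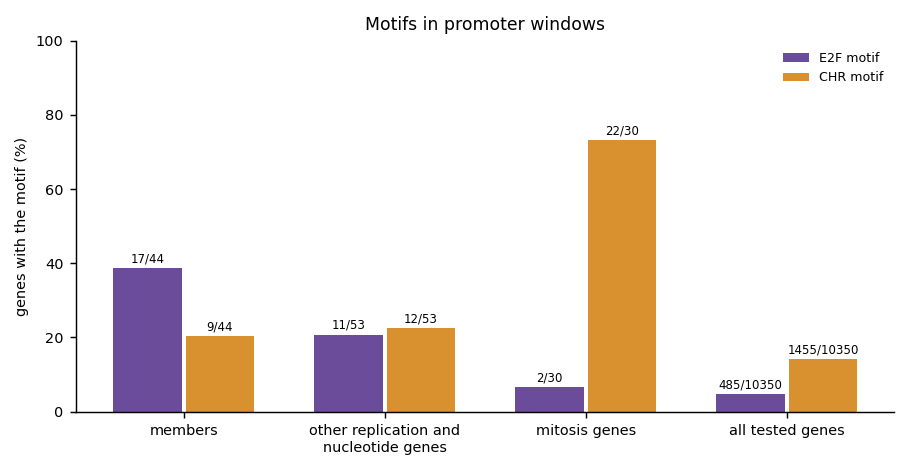
Share of genes, in percent, whose promoter window holds the E2F motif (purple) or the CHR motif (orange), with the number of genes with the motif of all genes with a window above each bar. The E2F motif is in 38.6% of the replication genes and 6.67% of the mitosis genes, and the CHR motif in 20.5% and 73.3%.

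Further genes of the pathway, 64 in all, mostly rose as well. With ET-3, 56 were higher, 3 lower and 5 did not pass, and with NT 54 were higher, 3 lower and 7 did not pass, with median log2 fold changes of 0.59 and 0.55. Those with the largest average change were E2f5, Pfas, an enzyme of purine synthesis (1.12 and 1.20), and Ticrr, which helps Cdc45 join the helicase (1.07 and 1.26). Those with the smallest were Rrm2b, the p53-induced small subunit of ribonucleotide reductase, Pold4, a small subunit of polymerase delta, and Tk2, the mitochondrial thymidine kinase. Rrm2b was at 207 and 175 in DMSO, 117 and 105 in ET-3 and 131 and 137 in NT, below the controls in every treated library (log2 fold changes -0.77 and -0.50, limma, adjusted p = 0.000184 and 0.00313). Pold4 was lower too (-0.70 and -0.55), and Tk2 did not pass (-0.35 and -0.12). Of 36 mitosis genes, 35 were higher with ET-3 and 36 in NT, 0 were lower, and their medians were 0.63 and 0.59. Espl1, the separase that parts sister chromatids (1.27 and 1.29), Ttk, a kinase of the spindle checkpoint (1.16 and 1.21), and Kif2c, a microtubule depolymerase (1.11 and 1.04), changed most. Fzr1, an activator of the anaphase-promoting complex (0.10 and 0.14), Bub3 (0.34 and 0.19) and Spc24 (0.35 and 0.21) changed least. With the treated pairs averaged, 37 and 30 of the 64 genes and 26 and 23 of the 36 were higher with ET-3 and NT, beside 10.5% and 9.16% of all genes. Lower were then 0 of either list, beside 18.2% and 15.7% of all genes. The calls of Rrm2b (limma, adjusted p = 0.0753 and 0.133), Pold4 (0.0572 and 0.077), Bub3 (0.0721 and 0.152) and Spc24 (0.0606 and 0.114) were lost in that fit.

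Compared directly, NT and ET-3 hardly differed in these genes. None of the 52 was higher with NT, beside 0.647% of all genes, and 2 were lower, beside 2.05% of all genes. Over all genes these were 90 higher and 285 lower calls, which scaling to the library total turned into 169 and 274. The median difference of the 52 genes, NT minus ET-3, was -0.02 on the log2 scale (range -0.29 to 0.17), where that of all genes was 0.03. The 2 lower genes were Rrm2 (chr12:24708241-24714146), with -0.29 (95% interval -0.41 to -0.17), and Rpa1 (chr11:75298166-75348324), the large subunit of replication protein A, with -0.22 (-0.32 to -0.11). Rpa1 was at 751 and 738 in DMSO, 1135 and 1088 in ET-3 and 975 and 937 in NT, so the NT libraries lay between the others without overlap. Their adjusted p (limma) was 0.0379 and 0.0433, and neither passed with a replicate block (0.0691 and 0.0731), in a fit of these 2 groups alone, or when any 1 of the 6 libraries was left out. The difference between the ligands moved with coverage. Across the 52 genes its Spearman correlation with reads per exonic base was -0.68, and across 13914 genes it was -0.38, where the points share libraries and length and are not independent. The 17 genes with the highest coverage had a median difference of -0.12, and all genes in the same range of coverage had -0.11. For the middle 18 genes the medians were 0 and 0, and for the lowest 17 they were 0.04 and 0.07. With the trend against coverage removed, the differences of Rrm2 and Rpa1 were -0.01 and -0.12 and did not pass (limma, adjusted p = 0.933 and 0.238), whereas Rrm2 then passed in NT against DMSO (0.27, adjusted p = 2.77e-05).

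**Figure D5:**
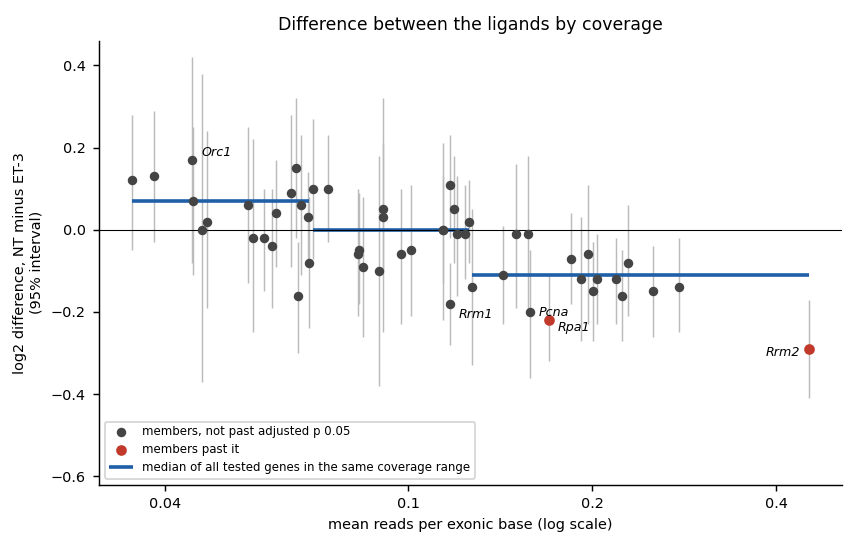
Log2 difference NT minus ET-3 (with 95% interval) of each of the 52 genes against its mean reads per exonic base on a log axis. Blue bars are the median of all genes tested in the same range of coverage (0.07, 0 and -0.11); Rrm2 and Rpa1 (red) passed an adjusted p of 0.05, and the genes with more reads per base lie lower.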

How the data were processed

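RNA-seq of MuSCs with DMSO, ET-3 or NT (2 libraries each, grouped by label) was used as 1 table. The deposited values are a read signal, whole numbers scaled by 1 factor per library and rounded, so count models were not used. The authors trimmed, aligned to mm10 (GRCm38) with STAR and counted on exons with featureCounts. The submitters' processing notes name Trimmomatic 0.38, STAR 2.7.7a, featureCounts 1.6.5 and DESeq2 1.30.0, the paper names other versions and another library kit, which leaves strand use unclear, and neither describes the scaling. The series text says triplicate.

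Genes whose mean value reached 5 were tested on log2(value + 1) with limma 3.58.1 (eBayes with trend) in R 4.3.3, all 6 libraries in 1 fit, Benjamini-Hochberg over 13921 genes; fold changes are on that scale and understate low genes. Exonic lengths came from GENCODE on GRCm38 (18920 of 18943 identifiers matched), and promoters from RefSeq. Python 3.11.15 drew the plots. Genes, lists and rules were chosen with earlier results of these data known. Values in every library are given for a fixed set of genes by role, the 5 largest and 5 smallest average changes and those that differ between ligands. Of other lists, the 3 genes with the largest and the 3 with the smallest average change are named. Alternatives covered filters, scaling, pseudocounts, voom weights on recovered reads, a replicate block, 2 groups alone, averaged pairs, coverage, leaving out each library, transcript length, motif letters and window. Markers Emcn, Lum, Ptprc, Adgre1, Sox10 and S100b were not analysed here.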

Additional observations from a re-analysis of the deposited data

Results flagged for a closer look

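The direct comparison of the ligands gave a difference for 2 of the 52 genes, both lower with NT. Over all genes 2.05% were lower and 0.647% higher with NT. With a replicate block or in a fit of these 2 groups alone, 0 of all genes tested passed in either direction. Rpa1 was lower with NT than with ET-3 by a log2 difference of -0.22, and Rrm2 by -0.29 (limma, adjusted p = 0.0433 and 0.0379), with both NT libraries below both ET-3 libraries in each gene. In each gene the change against DMSO was in the same direction with both ligands, and that of Rrm2 with NT (0.12) did not pass the test. Both genes are among the 17 of the 52 with the highest reads per exonic base, where the median difference of all genes was -0.11, and the part of coverage in these differences was tested only by removing its trend, which left -0.12 and -0.01.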

How the results depend on the processing

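Of the alternatives to single genes' results, 1259 kept direction and side of the threshold, 54 lost a call, 7 gained one and 6, all of Orc4, which never passed, changed sign. Orc4 with ET-3 went from -0.02 to 0.07 (library total), 0.03 (upper quartile), and, leaving out 1 library, to between -0.16 and 0.12 (0.12 without the first DMSO and 0.03 without the first ET-3 library), and with NT from 0.04 to -0.01 (coverage trend removed) and, leaving out 1 library, to between -0.10 and 0.18 (-0.10 without the second DMSO library). Averaging treated pairs left 34 higher and 0 lower of the 52 genes with ET-3 and 30 and 0 (30 in all) with NT, 37 and 0 (37 in all) and 30 and 0 (30 in all) of the 64 further genes, and 23 of the 36 mitosis genes with NT (23 in all). Scaling to the library total, which moves the median of all genes to 0.08 (ET-3) and 0.10 (NT), gave 16 and 15 genes of the 52 at 2-fold, 13 and 16 of the 64 and 7 and 5 of the 36, and the upper quartile gave 13 of the 52, 10 of the 64 and 6 of the 36 with ET-3. A threshold of 1.5-fold gave 38 and 35. The 2 lower genes with NT became 1 without a filter and under both scalings. Between ligands, 3 genes differed with a mean value of at least 20, scaled to the upper quartile or with voom weights. The 2 genes that differed between ligands became 1 with pseudocount 0.5 and 0 without a filter, in 2 groups alone, with averaged pairs or without the coverage trend. Of the 52, leaving out 1 library gave 49 to 51 called with ET-3 (47 to 48 higher, 1 to 3 lower, 1 without the first ET-3 library, 6 to 11 at 2-fold, 11 without the second ET-3 library) and 46 to 48 with NT (45 to 46 higher, 1 to 2 lower, 1 without the second DMSO or either NT library, 7 to 9 at 2-fold), and 0 to 0 between ligands. For the 64, it gave 1 to 3 lower with NT, 1 without the second DMSO library, and for the 36, 3 to 5 at 2-fold with ET-3, 5 without the second DMSO or second ET-3 library. The lone library left in a group was assumed to vary like the others. With averaged pairs, each treated sample was assumed to vary like the DMSO libraries. The differences between first and second libraries correlated between the groups by -0.01, -0.07 and -0.02. These values cannot show whether the replicate numbers pair libraries, since the treated pairs differed by no more than sampling noise. A replicate block left 51 and 48 of the 52 called against DMSO and 0 between ligands. The highest to lowest MCM2-7 gene per kilobase with DMSO was 2.17, or 1.45 by longest transcript. The share of genes with the E2F motif was 31.8% with 2 letterings and 29.5% in the last 150 bases. The causes were not tested.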
